A study of Homo sapiens with 18 samples.

Results

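GCM1 and 8 genes known from the placenta and its trophoblast cells (GCM2, PSG3, CGA, GATA3, TFAP2A, HAND1, PGF and SDC1) were followed in HEK293 cells, a line derived from human embryonic kidney, after transfection of the homeobox genes RHOXF1 or RHOXF2. A member was any array feature (transcript cluster, the probes of 1 gene summarised together) whose gene symbols all belonged to these 9 names. That gave 9 clusters, 1 per gene, of the 21214 clusters that carried a gene symbol, and all 9 genes matched the RefSeq gene table by identifier. The genes were chosen by results already seen on these arrays, and which comparison had chosen them is not stated. Any comparison in which at least 1 of the genes passed the test or ranked among the 10 smallest p-values was taken as one that may have chosen them. Values of 3 comparisons are therefore given as description, with no test: RHOXF1 against RHOXF2 at 24 h, RHOXF1 against RHOXF2 at 48 h, and control cells at 48 h against 24 h. Where a count of passing genes is printed for one of these, it describes the choice and supports nothing.

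The study put 18 arrays on 6 groups of 3 and asked how the transcript levels of RHOX-transfected cells compare with those of control-transfected cells. The groups were cells given a RHOXF1 expression vector for 24 h, a RHOXF2 expression vector for 24 h, a control vector for 24 h, and the same 3 vectors for 48 h. Every culture was HEK293 in DMEM/F12 with serum, exposed to Lipofectamine 2000, a lipid that carries plasmids into cells, and all plasmids came from OriGene. The sample labels call the control vector empty, while the treatment text names the green fluorescent protein plasmid pCMV6-AC-GFP, and whether the RHOX plasmids also encode that protein is not stated. The series text calls the arrays of a group biological triplicates. RHOXF1 and RHOXF2 are X-linked homeodomain transcription factors known mainly from the germ line. HEK293 cells are not of trophoblast origin, transfection was transient, and the share of cells that took up a plasmid is not given, so each value averages over transfected and untransfected cells. In such bulk RNA, fewer cells expressing a gene and less RNA per cell cannot be told apart.

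The placenta is built by trophoblast cells, which leave the embryo's other lineages early. GCM1 (glial cells missing homolog 1) is a zinc-containing transcription factor that drives single trophoblast cells to fuse into the syncytiotrophoblast, the layer that faces maternal blood and secretes hormones. GATA3 and TFAP2A belong to the factors that set up trophoblast identity, and HAND1 is a basic helix-loop-helix factor needed in the mouse for trophoblast giant cells. CGA encodes the alpha subunit shared by chorionic gonadotropin and the pituitary glycoprotein hormones, PSG3 a pregnancy-specific glycoprotein, PGF the placental growth factor, and SDC1 the heparan sulfate proteoglycan syndecan-1 of the syncytial surface. GCM2 is the paralog of GCM1 and acts in the parathyroid gland, not in trophoblast.

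Promoter windows of 3 members are shown because the vectors encode homeodomain proteins and because GCM1 and CGA held the widest differences in the descriptions below, while GCM2 is the paralog of GCM1. Each run is the 250 bases before the RefSeq gene start in build GRCh38.p14, on the minus strand, 5′ to 3′: GCM1 at chr6:53148842-53149091, GCM2 at chr6:10882042-10882291 and CGA at chr6:87095107-87095356. Capitals mark 3 motifs found on either strand, the homeodomain core TAAT (or ATTA), the cAMP response element TGACGTCA and the TATA box TATAAA.
GCM1: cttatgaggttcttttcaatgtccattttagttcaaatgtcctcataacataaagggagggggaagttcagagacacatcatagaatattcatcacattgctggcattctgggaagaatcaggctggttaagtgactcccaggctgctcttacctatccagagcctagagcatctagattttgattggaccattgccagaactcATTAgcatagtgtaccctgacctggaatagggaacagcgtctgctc
GCM2: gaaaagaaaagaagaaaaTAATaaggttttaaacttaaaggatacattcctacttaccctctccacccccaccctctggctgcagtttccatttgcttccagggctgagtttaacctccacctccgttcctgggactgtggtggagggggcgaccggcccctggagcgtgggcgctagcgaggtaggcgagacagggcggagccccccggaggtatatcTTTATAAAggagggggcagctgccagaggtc
CGA: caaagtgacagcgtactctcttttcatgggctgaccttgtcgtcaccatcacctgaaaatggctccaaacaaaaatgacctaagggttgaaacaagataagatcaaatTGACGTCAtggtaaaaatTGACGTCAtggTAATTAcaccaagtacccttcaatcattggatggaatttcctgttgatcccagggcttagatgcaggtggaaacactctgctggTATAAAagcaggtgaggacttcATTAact
The GCM1 window held 1 homeodomain core, on the minus strand of the gene with its first base 46 bases before the start, and no TATA box. GCM2 held 1 core at 232 bases and a TATA box on each strand, at 31 and 29 bases, which overlap. CGA held 3 cores, of which the pair at 113 and 111 bases overlaps, 2 cAMP response elements at 142 and 124 bases, and a TATA box at 29 bases. Such short motifs are common: TAAT occurs in 47.4% of 35116 RefSeq windows of this length, TATAAA in 10.7% and TGACGTCA in 1.65%. The same search over all 17 windows of the 9 genes found TAAT in 4 genes, TATAAA in 4 genes, and TGACGTCA in CGA alone. The GATA motif AGATAA, present in 9.17% of all windows, lay in CGA only, at 156 bases. The GCM motif ATGCGGGT, present in 0.205% of all windows, lay in none of the 17. A motif match describes the letters of the window and says nothing about binding, and the RefSeq start need not be the one used in HEK293 cells.

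The transfected genes read as labelled. RHOXF1 lay between 12.1 and 12.3 on the log2 scale on all 6 arrays of RHOXF1 cells, and the cluster shared by RHOXF2 and RHOXF2B lay between 12.8 and 13.0 on all 6 arrays of RHOXF2 cells. RHOXF1 also read above every control array of the same time on all RHOXF2 arrays, at 6.94 to 7.89 in RHOXF2 cells against 6.13 to 6.56 in control cells at 24 h, and at 7.03 to 9.12 against 5.67 to 6.51 at 48 h. The third RHOXF2 array at 48 h held the highest of these, 9.12, and stood apart. On the first principal component, which held 34.1% of the variance, that array lay at -4.48, between the 24 h arrays (-17.2 to -8.71) and the other 48 h arrays (9.36 to 26.3). Values that it moved are given with and without it. Replicate arrays of a group correlated at 0.990 to 0.996, and the array medians of named clusters lay between 7.42 and 7.52. The markers of HEK293 cells NEFM, NEFL and VIM were above the upper quartile on all 18 arrays, and the other 3 of the list, INA, LHX1 and PAX2, lay between the quartiles on all 18, with means of 8.19, 7.47 and 6.55. Of the trophoblast markers, VGLL1, ERVW-1 and CYP19A1 were below the lower quartile on all 18 arrays, and KRT7 on 5. The other 3, GATA2, which HEK293 cells also express, GATA3 and TFAP2C, were below it on none and averaged 9.05, 7.59 and 6.72.

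GCM1 had its highest level in RHOXF2 cells at 48 h and its lowest in RHOXF1 cells at 48 h. At 48 h it read 5.39, 5.67 and 5.58 in RHOXF1 cells, 6.50, 6.49 and 6.28 in RHOXF2 cells, and 6.01, 5.73 and 5.80 in control cells. All RHOXF2 values exceeded every control value, and all RHOXF1 values lay below every control value. In these comparisons 11.8% and 12.6% of all clusters were free of overlap in either direction. At 24 h it read 5.53, 5.58 and 5.999 in RHOXF1 cells, 5.88, 6.18 and 5.96 in RHOXF2 cells, and 5.81, 5.65 and 5.87 in control cells. The RHOXF2 arrays again lay above the control arrays at 24 h, by a narrow margin, while those of RHOXF1 overlapped both. Between RHOXF2 and control at 24 h, 11.1% of all clusters were free of overlap. As group means the order ran from 6.42 ± 0.13 in RHOXF2 cells at 48 h through 6.01 ± 0.15 in RHOXF2 cells at 24 h, 5.85 ± 0.14 and 5.78 ± 0.11 in control cells at 48 h and 24 h, and 5.70 ± 0.26 in RHOXF1 cells at 24 h, down to 5.55 ± 0.14 in RHOXF1 cells at 48 h (SD, n = 3 each). From the second place downward, each group overlapped the next one. The mean of GCM1 stood at percentile 27.1 of all named clusters, and 7 of its 18 values were below the lower quartile of their array. Its lowest levels are therefore near the dim end of the arrays, where small differences are uncertain.

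**Figure D1:**
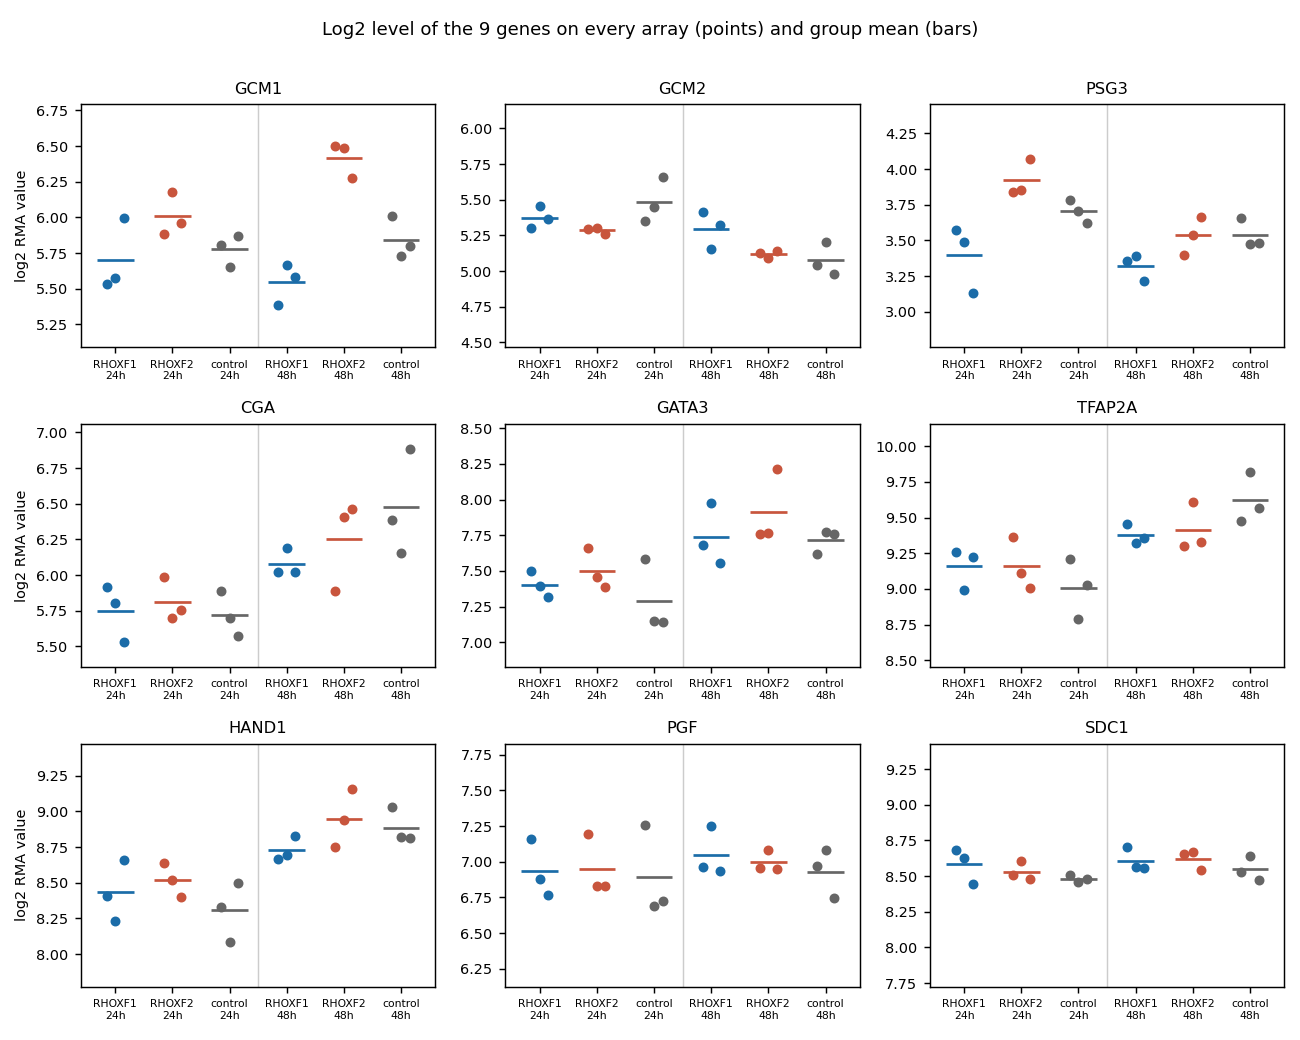
Log2 RMA value of each of the 9 genes (vertical axis, each panel spanning the same number of log2 units) on every array (points), by vector and time (horizontal axis), with the mean of 3 arrays as a bar. GCM1 in RHOXF2 cells at 48 h lies at 6.28 to 6.50, above all control arrays, and SDC1 spans only 0.26 over all 18 arrays.

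Between the transfected genes, GCM1 was lower in RHOXF1 cells than in RHOXF2 cells at 48 h, by 0.87 ± 0.12 on the log2 scale (SE), which is 0.546 times the RHOXF2 level. This comparison was taken as one that chose GCM1, since it held rank 5 of 21214 clusters by p-value, after the cluster pair of RHOXF2 with RHOXF2B, RHOXF1 and ANKRD1. In that comparison 1 of the 9 genes passed (0.0519% of all clusters did), a count that describes the choice. Without the array that stood apart the difference was -0.95, and without the second RHOXF2 array at 48 h it was -0.84 and GCM1 no longer passed. At 24 h GCM1 differed by -0.31 ± 0.12 between RHOXF1 and RHOXF2 cells, where no member passed and 0.0141% of all clusters did.

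Against control cells, GCM1 did not pass in either direction. In RHOXF2 cells at 48 h it was 0.57 ± 0.12 above control on the log2 scale, or 1.49-fold (limma, adjusted p = 0.0959, n = 3 each), rank 39 of all clusters, and 0.65 above without the array that stood apart (limma, adjusted p = 0.174). Without the first control array at 48 h it passed, at 0.66 (limma, adjusted p = 0.0386), a setting in which 125 of all clusters passed in place of 20, and over all settings tried the adjusted p ran from 0.0386 to 0.462. This comparison, and that of RHOXF1 with control at 48 h given next, share arrays with the one taken to have chosen GCM1. Neither is independent of that choice. In RHOXF1 cells at 48 h the difference from control was -0.30 ± 0.12 (limma, adjusted p = 0.654). At 24 h it was 0.23 ± 0.12 for RHOXF2 (limma, adjusted p = 0.682) and -0.07 ± 0.12 for RHOXF1 (limma, adjusted p = 0.98). Both comparisons of a time share the 3 control arrays of that time.

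**Figure D2:**
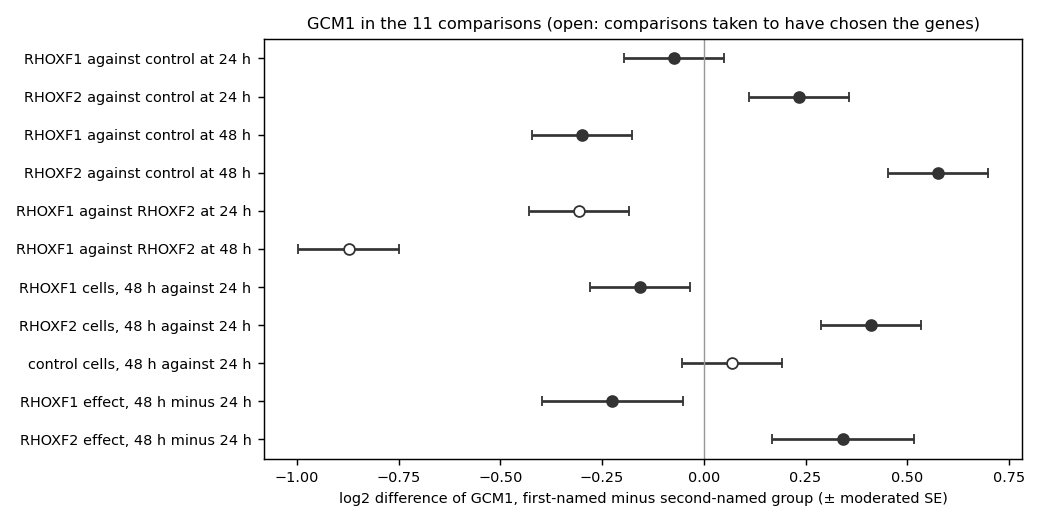
Log2 difference of GCM1 (horizontal axis) in each of the 11 comparisons (vertical axis), first-named group minus second-named group, with the moderated standard error as bars and open circles for the comparisons taken to have chosen the genes. The value for RHOXF1 against RHOXF2 at 48 h, -0.87, lies farthest from 0, and the value for RHOXF2 against control at 48 h, 0.57, comes next.

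Over time GCM1 in RHOXF2 cells was 0.41 ± 0.12 higher at 48 h than at 24 h (limma, adjusted p = 0.0976), and 0.48 higher without the array that stood apart (limma, adjusted p = 0.055). With all arrays there was no overlap between the times, as for 20.1% of all clusters. In RHOXF1 cells the corresponding difference was -0.16 ± 0.12 (limma, adjusted p = 0.536), and in control cells it was 0.07 ± 0.12. The RHOXF2 effect, taken as its difference from control, was 0.34 ± 0.17 larger at 48 h than at 24 h, and the test of that difference did not pass (limma, adjusted p = 0.577; 0.0141% of clusters passed). Without the array that stood apart that difference was 0.41 (limma, adjusted p = 0.836). For RHOXF1 the effect differed by -0.22 ± 0.17 between the times (limma, adjusted p = 0.95; 0% of clusters passed, 998 of 21214 at an unadjusted p under 0.05). All these tests reuse 48 h arrays of the comparison taken to have chosen GCM1, so none is independent of that choice. Arrays numbered 1 to 9 are the 24 h arrays and those numbered 16 to 24 the 48 h arrays, so time and array series cannot be told apart in any comparison over time.

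GCM2, which shares the GCM DNA-binding domain, showed another pattern. At 48 h it read 5.41, 5.15 and 5.32 in RHOXF1 cells, 5.12, 5.09 and 5.14 in RHOXF2 cells, and 5.05, 5.20 and 4.98 in control cells. At 24 h the values were 5.30, 5.46 and 5.37 in RHOXF1 cells, 5.30, 5.30 and 5.26 in RHOXF2 cells, and 5.35, 5.45 and 5.66 in control cells. The RHOXF2 arrays held together within each time, and control cells differed most between the times. GCM2 lay below the lower quartile of its array on all 18 arrays and its mean stood at percentile 19.1 of all named clusters. As a description, control cells at 48 h were 0.41 ± 0.09 below control cells at 24 h on the log2 scale. The same step was -0.08 ± 0.09 in RHOXF1 cells (limma, adjusted p = 0.699) and -0.17 ± 0.09 in RHOXF2 cells (limma, adjusted p = 0.368). The test that the RHOXF1 effect on GCM2 differs between the times gave 0.33 ± 0.13 (limma, adjusted p = 0.95). That test subtracts the control step, in a comparison taken to have chosen GCM2, so it is not independent of that choice.

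PSG3, 1 of a family of secreted glycoproteins made in quantity by the syncytiotrophoblast, was the dimmest member. At 24 h it read 3.57, 3.49 and 3.13 in RHOXF1 cells, 3.84, 3.85 and 4.07 in RHOXF2 cells, and 3.79, 3.71 and 3.62 in control cells. The RHOXF1 arrays lay below and the RHOXF2 arrays above the control arrays, with no overlap, as for 9.53% and 11.1% of all clusters. At 48 h it read 3.35, 3.39 and 3.22 in RHOXF1 cells, 3.40, 3.54 and 3.67 in RHOXF2 cells, and 3.66, 3.48 and 3.48 in control cells, and the RHOXF2 and control arrays overlapped. RHOXF1 cells were 0.52 ± 0.11 below RHOXF2 cells at 24 h (rank 4 by p-value, so this comparison was taken as one that chose PSG3) and 0.21 ± 0.11 below at 48 h, where the difference was -0.15 without the array that stood apart. Against control at 24 h the difference was -0.31 ± 0.11 in RHOXF1 cells (limma, adjusted p = 0.961) and 0.21 ± 0.11 in RHOXF2 cells (limma, adjusted p = 0.663). In RHOXF2 cells PSG3 was 0.39 ± 0.11 lower at 48 h than at 24 h (limma, adjusted p = 0.0779), a difference that passed without the array that stood apart. The tests against control at 24 h and over time reuse 24 h arrays of the comparison taken to have chosen PSG3. They are not independent of that choice. The mean of PSG3 stood at percentile 2.3 of all named clusters, and all 18 of its values were below the lower quartile of their array.

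No glycoprotein of the family passed. The list of 7 clusters of pregnancy-specific glycoproteins held no passing member in any of the 11 comparisons, and its median log2 difference for RHOXF1 against RHOXF2 was -0.01 at 24 h (0.0065 for all clusters) and -0.09 at 48 h (-0.0024 for all clusters). Its brightest members, PSG4 and PSG9, encode closely related proteins. A further pair of clusters list PSG3 among 11 symbols of the family and cannot be assigned to 1 gene; at 24 h their differences of RHOXF1 from RHOXF2 were 0.12 ± 0.08 and 0.05 ± 0.07, of the opposite sign to that of the PSG3 cluster, and at 48 h they were -0.10 ± 0.08 and -0.15 ± 0.07, of the same sign. Near-identical family members can share probes, so the PSG3 level is uncertain.

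CGA differed most between the times in control cells. At 48 h it read 6.02, 6.19 and 6.02 in RHOXF1 cells, 5.89, 6.41 and 6.46 in RHOXF2 cells, and 6.39, 6.16 and 6.89 in control cells. At 24 h it read 5.92, 5.80 and 5.53 in RHOXF1 cells, 5.99, 5.70 and 5.75 in RHOXF2 cells, and 5.89, 5.70 and 5.57 in control cells. The 3 groups overlapped at 24 h, and at 48 h the RHOXF1 arrays overlapped the low end of the control range. Control cells at 48 h were 0.76 ± 0.17 above control cells at 24 h, or 1.69-fold, as a description. The same step was 0.33 ± 0.17 in RHOXF1 cells (limma, adjusted p = 0.28) and 0.44 ± 0.17 in RHOXF2 cells (limma, adjusted p = 0.184). Against control at 48 h, CGA was at -0.40 ± 0.17 in RHOXF1 cells (limma, adjusted p = 0.657) and at -0.22 ± 0.17 in RHOXF2 cells (limma, adjusted p = 0.628), or at -0.33 without the array that stood apart (limma, adjusted p = 0.988). These tests against control reuse the 48 h control arrays of the comparison taken to have chosen CGA. They are not independent of that choice, which favors a difference below control. CGA had a wide spread within groups (SD 0.24), and 4 of its 18 values were below the lower quartile of their array.

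The 3 transcription factors GATA3, TFAP2A and HAND1 were expressed at middle to high levels, at percentiles 52, 78.1 and 68 of all named clusters. GATA3, which binds GATA motifs, read 7.68, 7.98 and 7.56 in RHOXF1 cells at 48 h, 7.76, 7.77 and 8.22 in RHOXF2 cells, and 7.62, 7.77 and 7.76 in control cells. The groups overlapped. At 24 h GATA3 read 7.50, 7.39 and 7.32 in RHOXF1 cells, 7.66, 7.45 and 7.39 in RHOXF2 cells, and 7.58, 7.15 and 7.14 in control cells, again with overlap. TFAP2A, an AP-2 factor, read 9.46, 9.32 and 9.35 at 48 h in RHOXF1 cells, 9.30, 9.61 and 9.33 in RHOXF2 cells, and 9.48, 9.82 and 9.57 in control cells. All 3 RHOXF1 values of TFAP2A lay below every control value, in a comparison where 12.6% of all clusters were free of overlap, whereas RHOXF2 overlapped control. At 24 h TFAP2A read 9.26, 8.99 and 9.22 in RHOXF1 cells, 9.36, 9.11 and 9.01 in RHOXF2 cells, and 9.21, 8.79 and 9.03 in control cells. HAND1 read 8.66, 8.70 and 8.82 at 48 h in RHOXF1 cells, 8.75, 8.94 and 9.16 in RHOXF2 cells, and 9.03, 8.82 and 8.81 in control cells. At 24 h HAND1 read 8.41, 8.24 and 8.66 in RHOXF1 cells, 8.64, 8.52 and 8.40 in RHOXF2 cells, and 8.33, 8.09 and 8.50 in control cells, and all 3 groups overlapped.

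Control cells at 48 h were above control cells at 24 h by 0.61 ± 0.12 for TFAP2A, 0.58 ± 0.13 for HAND1 and 0.43 ± 0.14 for GATA3. These are descriptions, since that comparison was taken as one that chose the genes. In it 4 of the 9 genes passed as higher (9.89% of all clusters did) and 1, GCM2, as lower (7.89% did), together 5 of 9 against 17.8% of all clusters. GATA3 was the member just inside that threshold, lost without any 1 of 4 of the 6 control arrays, and PSG3, at -0.17 ± 0.11, the next outside it. In RHOXF1 cells the step was 0.22 for TFAP2A, 0.29 for HAND1 and 0.34 for GATA3, and 0 of 9 genes passed while 4.42% of all clusters did (lowest limma adjusted p = 0.171; 2 members and 20.2% of all clusters at an unadjusted p under 0.05). In RHOXF2 cells it was 0.25, 0.43 and 0.41 in that order, and 0 of 9 genes passed while 1.24% of all clusters did (lowest limma adjusted p = 0.0779, for PSG3; 5 members and 16.7% of all clusters at an unadjusted p under 0.05). Without the array that stood apart the RHOXF2 steps were 0.29 for TFAP2A, 0.32 for HAND1, 0.26 for GATA3 and 0.33 for CGA, and PSG3 passed at -0.45 (limma, adjusted p = 0.0434). The step of PSG3 starts from 24 h arrays that were taken to have chosen it, so it is not independent of that choice. The test of a difference between the RHOXF1 step and the control step gave -0.39 ± 0.18 for TFAP2A (limma, adjusted p = 0.95), so a smaller step in RHOXF1 cells is not shown. That test subtracts the control step taken to have chosen TFAP2A, so it is not independent of that choice.

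PGF, a ligand of the VEGF receptor FLT1, and SDC1, a co-receptor for growth factors, differed little. PGF read 6.96, 7.25 and 6.93 at 48 h in RHOXF1 cells, 6.96, 7.08 and 6.95 in RHOXF2 cells, and 6.97, 7.08 and 6.74 in control cells. At 24 h PGF read 7.16, 6.88 and 6.76 in RHOXF1 cells, 7.19, 6.83 and 6.83 in RHOXF2 cells, and 7.26, 6.69 and 6.73 in control cells. The replicate numbered 1 was the highest of its group for PGF in all 3 groups at 24 h, as it was for CGA, GATA3 and TFAP2A. SDC1 read 8.71, 8.56 and 8.56 at 48 h in RHOXF1 cells, 8.65, 8.67 and 8.55 in RHOXF2 cells, and 8.53, 8.64 and 8.48 in control cells. Its values at 24 h were 8.68, 8.62 and 8.44 in RHOXF1 cells, 8.50, 8.61 and 8.48 in RHOXF2 cells, and 8.51, 8.46 and 8.48 in control cells. The smallest unadjusted p of either gene in the tested comparisons was that of SDC1 in RHOXF1 cells against control at 24 h, with a difference of 0.10 ± 0.08 (limma, adjusted p = 0.961). The within-group SD of SDC1 was 0.08, at percentile 9.51 of all named clusters, so differences of this size were within the spread between arrays.

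**Figure D3:**
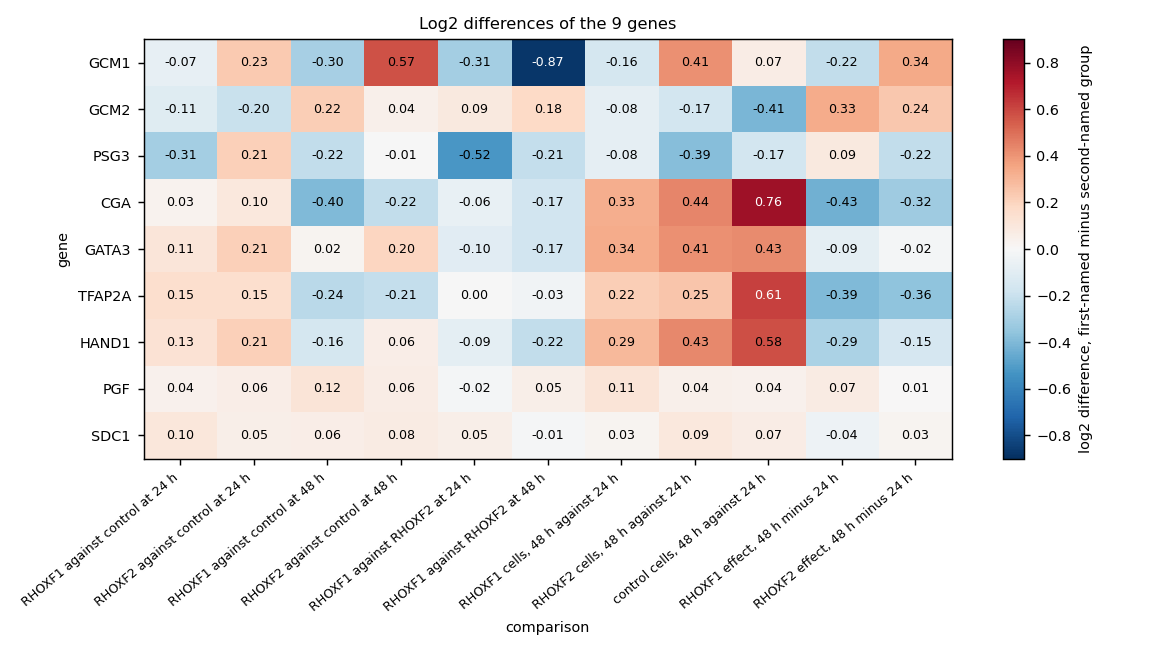
Log2 difference of each of the 9 genes (rows) in each of the 11 comparisons (columns), first-named minus second-named group, in color from -0.9 to 0.9 with the value printed. The dark cell of GCM1 for RHOXF1 against RHOXF2 at 48 h, -0.87, and the high values of CGA and TFAP2A for control cells over time, 0.76 and 0.61, stand out, while PGF and SDC1 stay near 0 throughout.

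Taking all 9 genes against control, none passed. The control arrays of both times are those of the comparison over time taken to have chosen genes among the 9. The counts and medians given next are therefore not independent of that choice. For RHOXF1 at 48 h, 4 were higher and 5 lower, with a median difference of -0.16 (0.01 for all clusters), and 0.00943% of all clusters passed. For RHOXF2 at 48 h, 6 were higher and 3 lower, with a median of 0.06 (0.01 for all clusters), and 0.0943% of all clusters passed. Without the array that stood apart, 5 were higher and 4 lower with a median of 0.03, HAND1 stood at -0.04 and GATA3 at 0.04, against 0.06 and 0.20 with it. For RHOXF1 at 24 h the median was 0.04 (0.0004 for all clusters) with 6 of 9 genes higher, and 0.00471% of clusters passed. For RHOXF2 at 24 h it was 0.15 (-0.0032 for all clusters) with 8 of 9 genes higher, and 0.00943% passed. Members whose arrays did not overlap with control numbered 3 for RHOXF1 at 48 h and 1 for RHOXF2 at 48 h, where 12.6% and 11.8% of all clusters were also free of overlap. At 24 h they numbered 1 for RHOXF1 and 3 for RHOXF2, beside 9.53% and 11.1% of all clusters. The 3 for RHOXF2 were GCM1 and PSG3, above control, and GCM2, below it.

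Wider gene lists of trophoblast biology, 137 clusters of which 128 were not among the 9, were examined beside GCM1. In RHOXF1 against RHOXF2 at 48 h, 0 of the 128 passed (0.0519% of all clusters did), and the pass of GCM1 there belongs to its choice. The GCM1 target list (8 genes reported as GCM1-regulated in trophoblast, including the fusion proteins syncytin-1 and syncytin-2, ERVW-1 and ERVFRD-1, and the estrogen-making enzyme CYP19A1) held no passing gene in any of the 11 comparisons. Its median difference for RHOXF2 against control at 48 h was 0.04 (0.01 for all clusters), with 8 of 8 higher and none passing. For RHOXF1 against RHOXF2 at 48 h the median was 0.02, with 5 of 8 higher. FZD5, a Wnt receptor and the brightest of the targets, differed there by 0.01, and PGF by 0.05. The largest difference of the 8 was that of LGALS13, at -0.28, of the same sign as GCM1, and it did not pass.

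Other lists held no passing cluster against control in any comparison. Among the 19 trophoblast transcription factors, 12 were higher and 7 lower for RHOXF2 against control at 48 h, with a median of 0.02. The 25 hormones, enzymes and fusion proteins of the syncytiotrophoblast had 19 higher and 6 lower there, with a median of 0.04, and 12 components of the cAMP and CREB pathway had 10 higher and 2 lower, with a median of 0.11. None of these clusters passed. The trophoblast list genes with the largest differences for RHOXF1 against RHOXF2 at 48 h other than GCM1 were LGALS13, a placental galectin, at -0.28, and FN1, the matrix protein fibronectin, at 0.26.

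**Figure D4:**
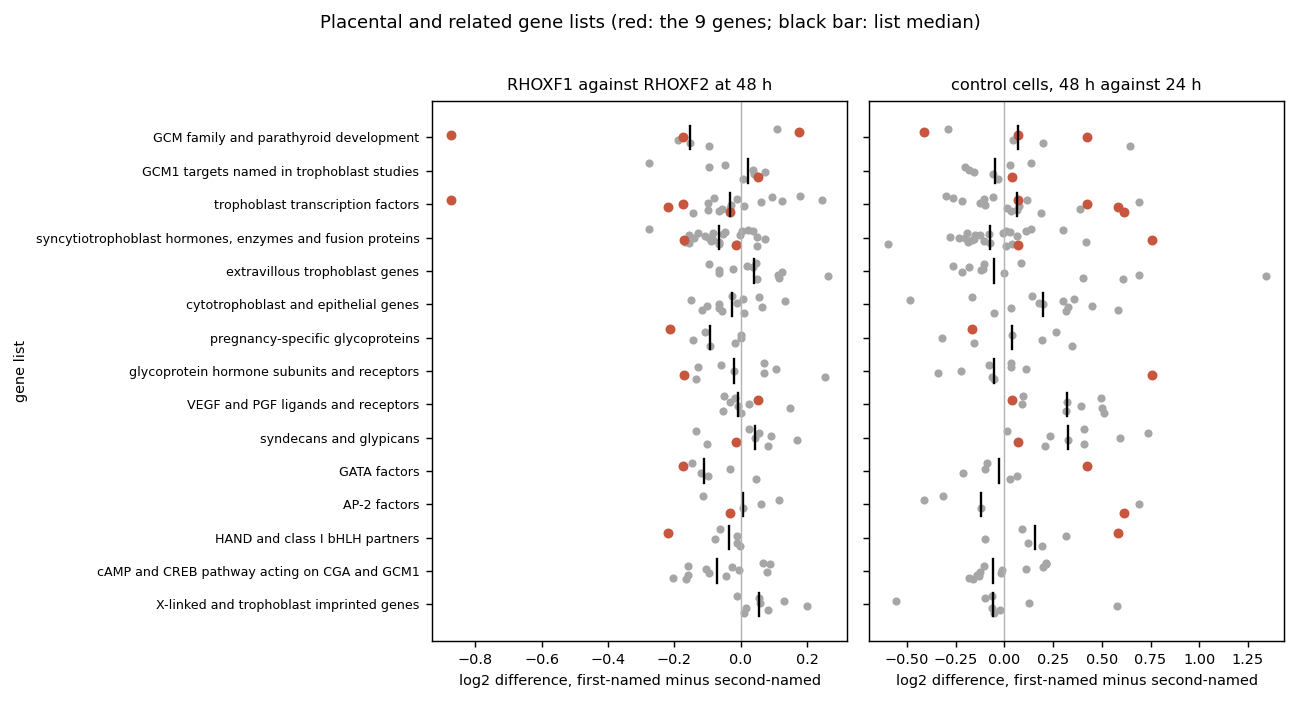
Log2 difference (horizontal axis) of every gene in 15 placental and related gene lists (vertical axis) for RHOXF1 against RHOXF2 at 48 h (left) and control cells at 48 h against 24 h (right), with the 9 genes in red and list medians as black bars. GCM1 at -0.87 lies apart on the left, where the others lie between -0.28 and 0.26, while the right panel is spread in both directions.

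Between the times, several list genes rose in cells given a RHOX vector, and those named here rose in control cells too. In RHOXF1 cells, 84 of the 137 clusters were higher at 48 h and 53 lower. Of these, 9 passed, all as higher, where 4.42% of all clusters passed. Among the 9 were FN1 by 0.89, the protease MMP2 by 0.74, the keratin KRT8 by 0.66, E-cadherin CDH1 by 0.55 and TFAP2C, an AP-2 factor of trophoblast stem cells, by 0.49 (limma, adjusted p = 0.0145, 0.00711, 0.0257, 0.0108 and 0.0135 in the order named). In RHOXF2 cells, 100 were higher and 37 lower. Of these, 5 passed, all as higher, where 1.24% of all clusters passed. They were KRT8 by 0.80, MMP2 by 0.63, CDH1 by 0.51, MCAM by 0.47 and TFAP2C by 0.41 (limma, adjusted p = 0.0254, 0.0243, 0.0312, 0.0298 and 0.0487 in that order). In control cells, as a description, the same steps were 1.34 for FN1, 0.69 for MMP2, 0.58 for KRT8 and 0.36 for CDH1. They were 0.69 for TFAP2C and 0.40 for MCAM. Both counts of passing clusters rest on single arrays: that of RHOXF1 cells was 3 without replicate 2 at 24 h, 0 without replicate 3 at 24 h, and 2 without replicate 1 or without replicate 3 at 48 h. That of RHOXF2 cells was 0 without replicate 2 or 3 at 24 h or replicate 2 at 48 h, 1 without replicate 1 at 48 h, and 8 without replicate 3 at 48 h, the array that stood apart. In control cells 30 of the 128 clusters that are not members passed, beside 17.8% of all clusters. That count and those of the lists below are descriptions, since this comparison was taken as one that chose the genes. Of the list of VEGF ligands and receptors that holds PGF, 9 of 9 were higher and 4 passed, VEGFA by 0.51, NRP2 by 0.50, VEGFC by 0.39 and NRP1 by 0.32. PGF itself differed by 0.04. Of the syndecans and glypicans, 9 of 9 were higher and 5 passed, led by GPC3 at 0.74, while SDC1 differed by 0.07. Of the AP-2 factors, TFAP2A and TFAP2C were higher and TFAP2B was lower, at -0.41.

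The genes whose 18 values were most like those of GCM1 were named by their Pearson correlation among 19459 other single-symbol clusters. They were ANKRD1, a nuclear ankyrin-repeat protein (r = 0.864), KRTAP19-5, a keratin-associated protein (0.795), the heat shock protein HSPA6 (0.781), DPPA3, a protein of early embryo and germ cells (0.759), and IFFO2 (0.713). The points are 18 arrays of 6 groups and share those groups, so these values describe a pattern and carry no test. Over the 6 group means the correlations were 0.919, 0.892, 0.867, 0.934 and 0.883 in the same order. Without the array that stood apart, the 5 correlations over 17 arrays lay between 0.676 and 0.849. All 5 had their highest group mean in RHOXF2 cells at 48 h. ANKRD1 averaged 5.57 in RHOXF1 cells, 7.91 in RHOXF2 cells and 5.48 in control cells at 48 h, a wider difference than that of GCM1. ANKRD1 and KRTAP19-5 were also among the clusters that passed for RHOXF1 against RHOXF2 at 48 h. HSPA6, at -1.55, was the next cluster outside that threshold.

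**Figure D5:**
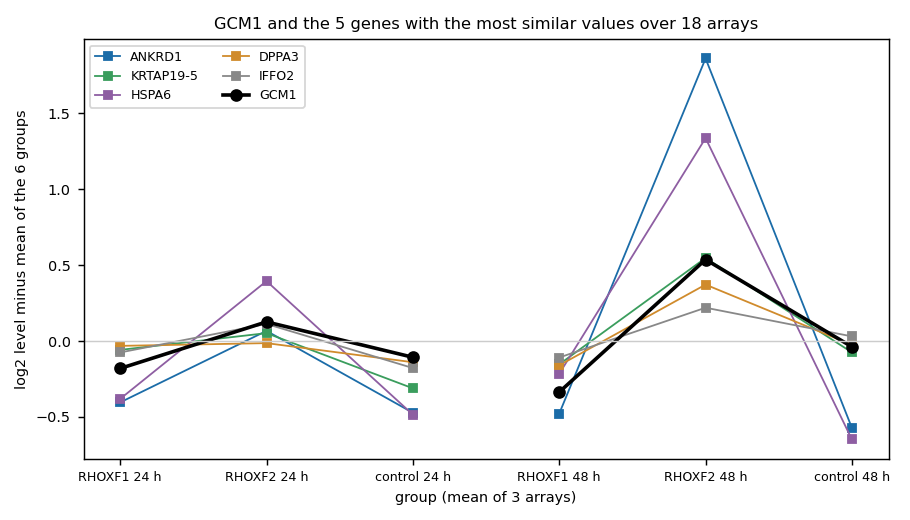
Mean log2 level of 3 arrays per group minus the mean of the 6 groups (vertical axis), by group (horizontal axis), for GCM1 and the 5 genes with the most similar values over 18 arrays. All 6 lines peak in RHOXF2 cells at 48 h, where ANKRD1 and HSPA6 lie above GCM1.

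Among themselves, the 9 genes did not vary as 1 group. Over the 18 arrays CGA correlated with GATA3 at 0.738, with TFAP2A at 0.701 and with HAND1 at 0.685, and TFAP2A with HAND1 at 0.756, while GCM2 correlated with CGA at -0.808. GCM1 correlated with CGA at 0.136, with GATA3 at 0.28 and with HAND1 at 0.454. After each group's mean was taken out, CGA and TFAP2A correlated at 0.11 and CGA and HAND1 at 0.066, while CGA and GATA3 kept 0.544 and CGA and GCM2 -0.53. The highest were then GATA3 with PGF at 0.656 and TFAP2A with PGF at 0.625. Taking out group means leaves in what same-numbered arrays share. At 24 h replicate 1 was the highest of its group for CGA, GATA3, TFAP2A and PGF, and its part in these correlations was not tested. The 18 points share groups, times and array series, so these values are a description without a test.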

How the data were processed

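The deposited values are log2 RMA expression values, made by the authors with Affymetrix Expression Console 3.1, per the submitters' processing notes and the labels (RMA corrects background, normalizes by quantiles and summarises probes); the log2 scale was checked on the values. Per the labels of the samples the platform is a Human Gene ST array, but the series text says an exon array; the genome build is not given in the sources used here. Symbols came from the supplied probe table. Of 33297 transcript clusters, 12083 carried no symbol; the other 21214 (19460 with a single symbol, 1754 with several) were tested, with no filter on dim clusters. The tests used lmFit and eBayes of limma, version 3.58.1 (R version 4.3.3), with 1 mean per group over 18 arrays (12 residual degrees of freedom), and p-values were adjusted by Benjamini-Hochberg over the 21214 clusters at 0.05, two-sided. SE is limma's moderated one and SD that of 3 arrays; the number of arrays limits the precision. The fit was tested on simulated data.

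The members and gene lists were chosen with earlier results of these data known. Named were all 9 members and the 5 clusters most correlated with GCM1. Of the list genes that passed in any comparison and the 2 brightest of each list, only a part is named. LGALS13 was named after its values were seen. Promoter windows are RefSeq's, build GRCh38.p14. Replicate numbers were checked for pairing: residuals correlated above 0.1 in 8 of 9 same-numbered pairs at 24 h and 2 of 9 at 48 h. Pairing was to be used only if every pair passed, so the reported fit has no block and leaves out what same-numbered arrays share at 24 h. The alternatives were other filters, normalizations, a replicate block and each array left out.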

Additional observations from a re-analysis of the deposited data

How the results depend on the processing

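Over 8 other settings and 18 arrays left out in turn, no difference of the 9 genes that passed changed sign. Of 1439 values, 1428 kept their side of the threshold, 9 no longer passed and 2 newly passed. Most of these values belong to differences that did not pass in the reported fit, so the 1428 says little about how stable the calls are. In control cells over time, 3 genes passed in place of 5 with only the clusters above the median level, since GCM2 and CGA were filtered out. With only the 2 groups fitted, 3 passed, and GATA3 and GCM2 no longer did. GATA3 accounted for most of the lost calls, among them those without control 24 h replicate 2, 24 h replicate 3, 48 h replicate 2 or 48 h replicate 3. For RHOXF1 against RHOXF2 at 48 h the count was 0 with only clusters above the median level, since GCM1 was filtered out, and ranged from 0 to 1 with an array left out: without the second RHOXF2 array at 48 h GCM1 stood at -0.84 and did not pass. For RHOXF2 against control at 48 h it ranged from 0 to 1: without the first control array at 48 h GCM1 passed at 0.66 (limma, adjusted p = 0.0386; highest over all settings 0.462). For RHOXF2 cells over time it ranged from 0 to 1: PSG3 passed at -0.45 (limma, adjusted p = 0.0434) without the third RHOXF2 array at 48 h. Both newly passing comparisons share arrays with those taken to have chosen GCM1 and PSG3. The cause of these moves was not tested. A fit with the replicate block changed no count of members (5 in control cells over time, 1 for RHOXF1 against RHOXF2 at 48 h), also at 24 h, where 0 of 9 passed against control (lowest limma adjusted p = 0.813 for RHOXF1 and 0.536 for RHOXF2); over all clusters it gave 690 for RHOXF2 cells over time, against 264 without it. That count fell to 4 without the second RHOXF2 array at 24 h, and to 10 with only the groups compared; for RHOXF1 cells over time 937 fell to 13 without the third RHOXF1 array at 24 h. Of the 137 list clusters, 17 to 38 passed in control cells over time under the other settings (35 reported), 7 to 12 in RHOXF1 cells and 0 to 10 in RHOXF2 cells, where only the groups compared gave 0 and the replicate block 10. With all transcript clusters tested, 5 passed for RHOXF1 against RHOXF2 at 48 h, against 11. The dim levels of PSG3, GCM2 and GCM1 limit what their small differences can show.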
